A study of Homo sapiens with 12 samples.

Results

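TXNIP, ARRDC3 and ARRDC4 encode α-arrestins, and the mRNA of none of them passed the test in LNCaP cells treated with metformin or AICAR. The members were the features of the array whose gene symbol, or an older alias of it, is TXNIP, ARRDC3 or ARRDC4. Each gene had 1 feature, which gives 3 of 27648 features and 3 of 24541 transcripts tested. LNCaP is a human prostate cancer cell line. The groups were untreated (control), exposed to metformin at 5 mM or exposed to AICAR, an AMPK activator, at 5 mM, with 24 h of exposure in the labels and no further agent or genetic change named. A figure legend of the study names a shorter exposure, so the time is uncertain. RNA of these groups was hybridized in pairs to 12 arrays. The series' design text says that 2 culture experiments were independent, and each supplied all 3 pairings, with the Cy3 and Cy5 dyes exchanged on a second array, so 4 arrays of a pairing hold 2 replicates. Log ratios were taken as log2 of the Cy5 signal divided by the Cy3 signal. Neither the log base nor the direction is stated, so the signs given here depend on that choice. Of the culture 1 arrays, 3 carried slide numbers apart from the rest: both of metformin against control and 1 of AICAR against control. A fit without them keeps only 1 array against control in culture 1, with AICAR in Cy3, so the dyes are not balanced there. The ratios hold no signal intensity, so how strongly each gene was expressed, whether its feature lay above background, and whether LNCaP markers were present could not be read from them.

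The arrestin fold is a pair of β-sandwich domains that lets a protein hold a membrane receptor or transporter while other parts recruit the sorting machinery. The α-arrestins carry tail motifs that bind ubiquitin ligases of the NEDD4 family, which mark the cargo for endocytosis. TXNIP, the thioredoxin-interacting protein, also binds and inhibits thioredoxin and lowers glucose uptake by removing glucose transporters from the cell surface. Transcription of TXNIP and ARRDC4 follows glucose through the Mondo proteins and their partner MLX, which bind carbohydrate response elements. AMPK, the energy sensor that metformin and AICAR are known to activate, phosphorylates the TXNIP protein and promotes its degradation, a step that an mRNA measurement does not see. ARRDC3 is known as an adaptor for the ubiquitination of β-adrenergic receptors and integrin β subunits.

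The 250 bases before the RefSeq start sites (GRCh38.p14) are shown because TXNIP and ARRDC4 are textbook targets of the Mondo and MLX factors, and the genes of those factors are among the results below. Capitals mark the E-box CACGTG, the CCAAT box on either strand (CCAAT or ATTGG) and a loose form of the carbohydrate response element. That form is a pair of E-box-like motifs, CACGNG and CNCGNG, with 5 bases between them, searched on both strands. The windows are chr1:145996580-145996829 on the minus strand for TXNIP, chr5:91383318-91383567 on the minus strand for ARRDC3 and chr15:97960453-97960702 on the plus strand for ARRDC4.
TXNIP: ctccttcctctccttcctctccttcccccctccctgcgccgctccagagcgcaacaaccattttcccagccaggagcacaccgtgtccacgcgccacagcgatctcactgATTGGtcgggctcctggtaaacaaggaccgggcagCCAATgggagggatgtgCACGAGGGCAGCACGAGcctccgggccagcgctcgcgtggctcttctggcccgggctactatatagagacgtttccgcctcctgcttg
ARRDC3: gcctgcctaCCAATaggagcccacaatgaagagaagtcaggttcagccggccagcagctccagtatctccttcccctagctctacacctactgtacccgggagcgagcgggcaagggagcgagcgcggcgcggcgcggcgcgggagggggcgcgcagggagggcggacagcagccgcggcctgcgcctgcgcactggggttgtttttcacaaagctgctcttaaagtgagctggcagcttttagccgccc
ARRDC4: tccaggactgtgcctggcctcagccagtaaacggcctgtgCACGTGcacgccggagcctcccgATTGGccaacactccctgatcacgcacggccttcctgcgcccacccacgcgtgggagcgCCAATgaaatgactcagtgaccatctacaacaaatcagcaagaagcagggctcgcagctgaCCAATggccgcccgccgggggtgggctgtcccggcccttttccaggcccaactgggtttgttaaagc

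The TXNIP window held the loose carbohydrate response element from −88 to −72 relative to the start site, written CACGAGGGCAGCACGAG in capitals above. Of 35116 promoter windows of the same length, 149 (0.424%) held this pattern. CCAAT boxes lay just upstream of it at −105 to −101 and, on the other strand, at −140 to −136. ARRDC4 had an E-box from −210 to −205, which 6.34% of windows held, and 3 CCAAT boxes. ARRDC3 had a single CCAAT box, at −241 to −237, and 32.0% of all windows held at least 1. The second window of the table for TXNIP and that for ARRDC3, at start sites further downstream, held none of these motifs. A match describes the letters only.

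TXNIP had ratios near 1 in all 3 comparisons. Against control cells, metformin arrays read −0.14 and 0.26 in culture 1 and −0.17 and 0.16 in culture 2 on the log2 scale. In both cultures, the array with metformin in Cy3 was below 0 and its partner with metformin in Cy5 was above it. The dye-swap means were 0.057 and −0.0090. The fitted log2 ratio was 0.035 (SE 0.073, limma adjusted p = 0.889, n = 2 cultures), a ratio of 1.02 with a 95% interval from 0.899 to 1.17. Of all transcripts, 21.5% had a smaller change in either direction in this comparison. Without the 3 arrays apart, the log2 ratio was −0.081 (adjusted p = 0.781 from limma).

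With AICAR, TXNIP read −0.093 and 0.43 in culture 1 and −0.059 and 0.27 in culture 2. Again the AICAR signal was higher only where AICAR carried Cy5. The fitted log2 ratio to control was 0.12 (SE 0.073, limma adjusted p = 0.407, n = 2 cultures), a ratio of 1.09 (95% interval 0.956 to 1.24). Without the 3 arrays apart it was 0.0014. In culture 1 that fit keeps the array with AICAR in Cy3 (−0.093) without its dye partner. Between metformin and AICAR the arrays read −0.13 and −0.012 in culture 1 and −0.26 and 0.082 in culture 2. The fit gave −0.089 (SE 0.073, adjusted p = 0.514 from limma) and a ratio of 0.940 (95% interval 0.824 to 1.07). The 2 cultures lay close together, at −0.083 and −0.096. The TXNIP intervals of all 3 comparisons end inside the log2 threshold of 0.7 on both sides, so a change of that size was not seen in this fit, while smaller ones cannot be told from 0.

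ARRDC3 had the highest ratios of the 3 genes with metformin, on arrays that all pointed one way. The metformin arrays read 0.57 and 0.72 in culture 1 and 0.21 and 0.29 in culture 2 against control. The 4 arrays lay above 0, and culture 1 lay above culture 2 with no overlap. Both culture 1 arrays here carried slide numbers apart, so culture and slide numbers cannot be told apart. The fitted log2 ratio was 0.42 (SE 0.12, n = 2 cultures), a ratio of 1.34 (95% interval 1.08 to 1.67). It did not pass, with adjusted p = 0.167 from limma, and without the 3 arrays apart it was 0.33. Its place was 1282 from the highest of 24541 transcripts, and 89.5% of transcripts had a smaller change in either direction.

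With AICAR, ARRDC3 read −0.17 and 0.18 in culture 1 and −0.35 and −0.029 in culture 2, around and below 0. The fitted log2 ratio to control was −0.068 (SE 0.12, limma adjusted p = 0.794, n = 2 cultures), a ratio of 0.954 (95% interval 0.766 to 1.19). The direct arrays of metformin against AICAR read 0.41 and 0.84 in culture 1 and 0.15 and 0.48 in culture 2, all above 0. Their fitted log2 ratio was 0.49 (SE 0.12, limma adjusted p = 0.0740, n = 2 cultures), a ratio of 1.41 (95% interval 1.13 to 1.75). This contrast is the test of whether the effects of metformin and AICAR differ, and it did not pass. The upper ends of both metformin intervals, at log2 0.74 and 0.81, lie beyond the threshold of 0.7, so for ARRDC3 a change of that size lies within the intervals.

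ARRDC4 had its highest values with AICAR, and these depended on culture and dye. Against control, the AICAR arrays read −0.014 and 0.30 in culture 1 and 0.14 and 0.99 in culture 2. A single array of culture 2, with AICAR in Cy5, stood well above the other 3. The fitted log2 ratio was 0.29 (SE 0.11, limma adjusted p = 0.245, n = 2 cultures), a ratio of 1.22 (95% interval 0.997 to 1.49), with 0.094 in culture 1 and 0.48 in culture 2. Metformin against control read −0.16 and −0.016 in culture 1 and 0.036 and 0.096 in culture 2, with a fit of 0.055 (SE 0.11, adjusted p = 0.888 from limma). The cultures did not overlap, and their means had opposite signs, but both culture 1 arrays carried slide numbers apart. Metformin against AICAR read −0.25 and 0.082 in culture 1 and −0.55 and 0.045 in culture 2, with a fit of −0.23 (SE 0.11, adjusted p = 0.278 from limma).

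**Figure D1:**
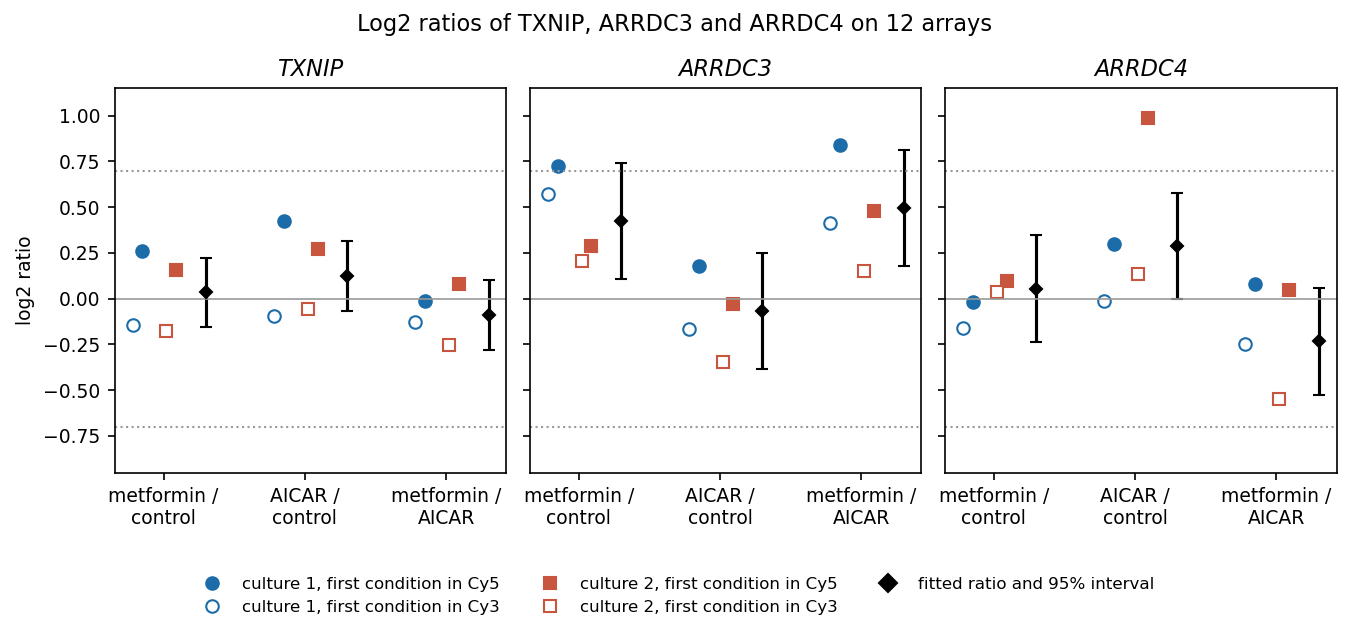
Log2 ratio of each gene (vertical axis) in the 3 comparisons (horizontal axis), with circles for culture 1, squares for culture 2, filled symbols where the first-named condition carried Cy5 and open symbols where it carried Cy3. Diamonds are the fitted ratios with 95% intervals, dotted lines the threshold of 0.7 in either direction, and only ARRDC3 has all 4 arrays on a single side of 0, in both comparisons that hold metformin.

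The order of the fitted levels rests on differences that did not pass. For TXNIP it ran from control to metformin (0.035 above control on the log2 scale) to AICAR (0.12 above control), and the metformin value fell below control without the 3 arrays apart. For ARRDC3 it ran from AICAR (−0.068) to control to metformin (0.42), and for ARRDC4 from control to metformin (0.055) to AICAR (0.29), as for TXNIP. In culture 1 the metformin level of ARRDC4 lay below control, at −0.039. Per culture, the metformin level of ARRDC3 was 0.64 and 0.21 above control, and that of AICAR was 0.011 above and 0.15 below it (log2 −0.15). The AICAR level of TXNIP was 0.15 and 0.096 above control in the 2 cultures.

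**Figure D2:**
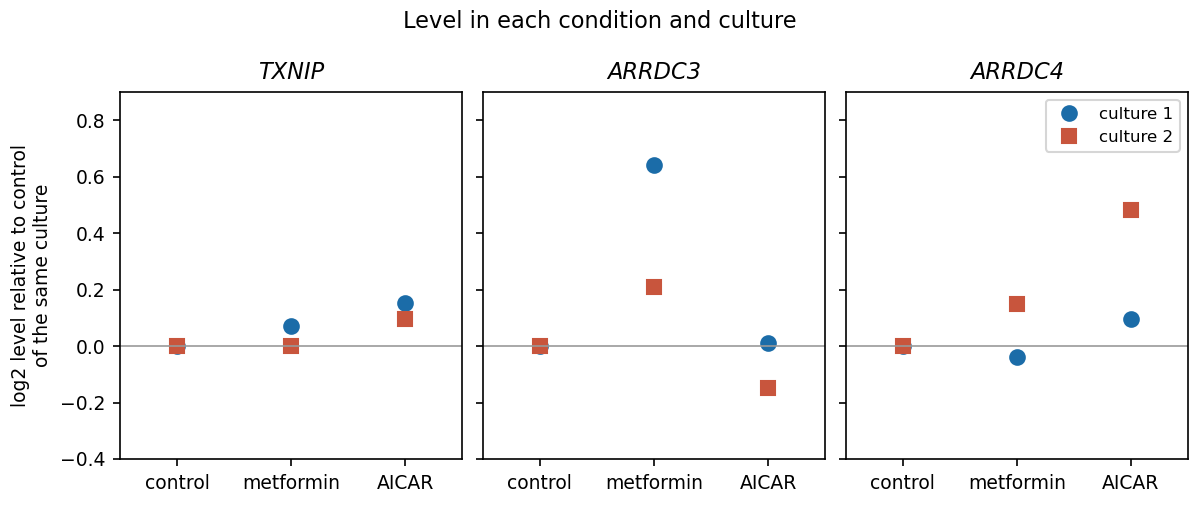
Level of each gene (log2, vertical axis) in control, metformin and AICAR extracts of culture 1 (circles) and culture 2 (squares), set to 0 in the control of the same culture. ARRDC3 is highest with metformin in both cultures (0.64 and 0.21), and ARRDC4 is highest with AICAR (0.094 and 0.48).

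The metformin to control ratio can also be obtained by way of the AICAR arrays, which are separate hybridizations of extracts with the same label. For ARRDC3 the direct mean was 0.65 and the indirect value 0.63 in culture 1, and 0.25 and 0.13 in culture 2. For TXNIP the values were 0.057 and 0.097 in culture 1, and −0.0090 and 0.019 in culture 2. ARRDC4 closed less well, at −0.088 and 0.059 in culture 1 and 0.066 and 0.31 in culture 2. Its gaps of −0.15 and −0.25 compare with median gaps of 0.0942 and 0.107 in size over all transcripts. The fitted ARRDC4 ratio of metformin to control, 0.055, is smaller than either of its gaps.

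The dye moved with the sign of these small ratios. In all 6 dye-swap pairs, and for each of the 3 genes, the array with the first-named condition in Cy5 read higher than its partner. The gap averaged 0.339 for TXNIP, 0.274 for ARRDC3 and 0.383 for ARRDC4, and it reached 0.852 for ARRDC4 with AICAR in culture 2. Among all transcripts, 17.0% had the Cy5 array higher in all 6 pairs and 14.9% had it lower in all 6. For TXNIP, 5 of 6 arrays with the first condition in Cy5 were above 0 and 6 of 6 with it in Cy3 were below. Averaging the partners removes such an offset where it is equal in both. For ARRDC3 against control, metformin was above 0 with either dye in both cultures.

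Across the whole array, metformin against control had 1.5% of transcripts past the test as higher and 1.23% as lower (limma, adjusted p under 0.05 with a log2 ratio above 0.7 in size). AICAR against control had 0.456% higher and 2.89% lower, and metformin against AICAR had 4.59% higher and 2.01% lower. Of the 3 genes, 0 passed in any comparison in limma. At an unadjusted p below 0.05 in limma, ARRDC3 alone qualified, in the 2 comparisons with metformin. Of all transcripts, 17.5% did so with metformin against control, 20.9% with AICAR against control and 26.4% between the treatments. Among genes with a symbol, the only kind in the lists, the shares were higher, at 21.4%, 24.5% and 31.1%. These shares are the background for 1 of 3 and for the counts of listed genes at an unadjusted p below. The shares past the test are the background for the counts of listed genes that passed. In each of 11 other fits, 0 of the 9 ratios passed, and 2 to 5 of the 9 had an unadjusted p below 0.05. A count of 0 of 3 is near these background shares. The rule for naming genes of the most similar pattern applied only to a gene that passed, so it named none.

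**Figure D3:**
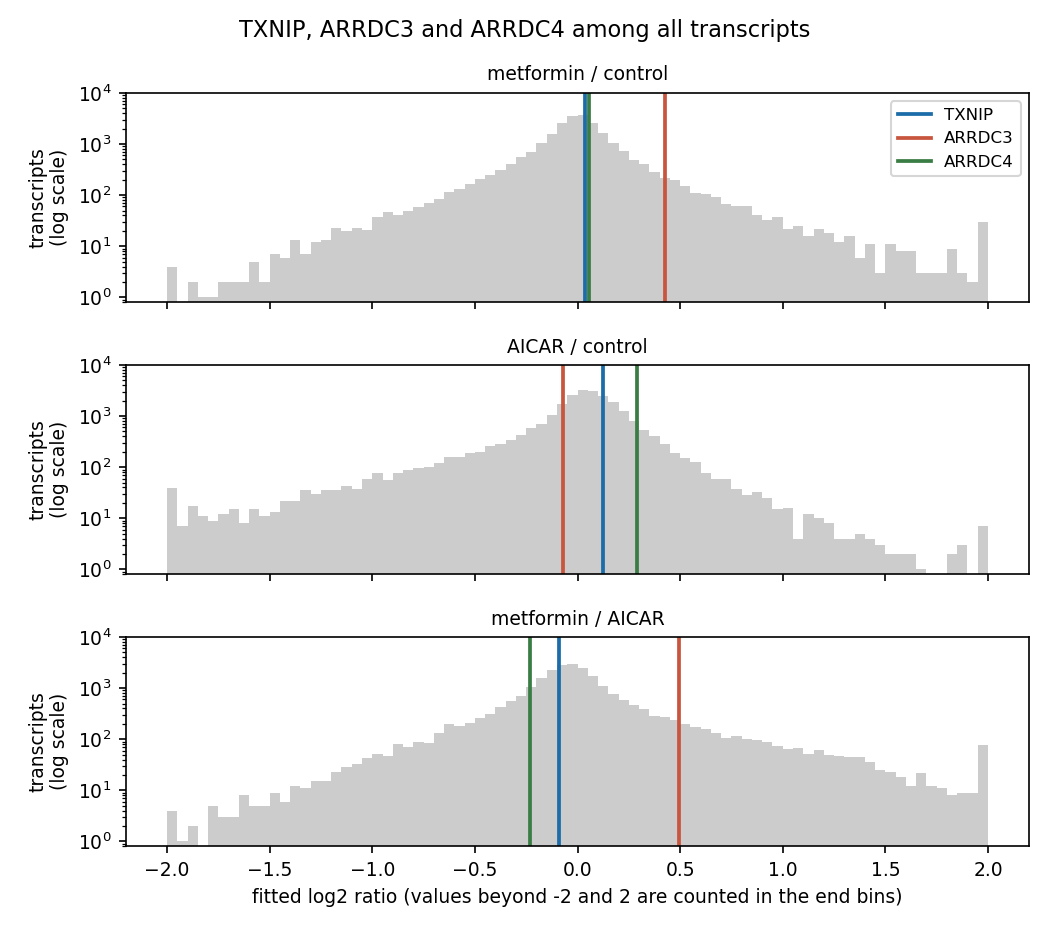
Number of transcripts (vertical axis, log scale) by fitted log2 ratio (horizontal axis) in the 3 comparisons, with lines for TXNIP, ARRDC3 and ARRDC4. TXNIP lies in the centre of each distribution, and ARRDC3 lies on the higher side of both comparisons that hold metformin (0.42 and 0.49).

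Other proteins with an arrestin fold were measured beside them. Of 11 measured genes of the family, the 3 included, 0 passed with metformin against control (4 had an unadjusted p below 0.05 in limma), 1 fell with AICAR and none rose, and 1 was higher and 1 lower with metformin than with AICAR. Among all transcripts, 2.89% fell with AICAR, and 4.59% were higher and 2.01% lower between the treatments. ARRDC2, a further α-arrestin, fell with AICAR on all 4 arrays, at −1.20 and −1.16 in culture 1 and −1.03 and −1.14 in culture 2. Its fitted log2 ratio was −1.08 (SE 0.082, limma adjusted p = 0.00917, n = 2 cultures). With metformin ARRDC2 was at −0.36 (adjusted p = 0.102), and between the treatments at 0.72 (adjusted p = 0.0124), a call that is lost in 3 alternatives, where the ratio was 0.67 to 0.69. ARRB2, the gene for β-arrestin that desensitizes G protein-coupled receptors, was lower with metformin than with AICAR (log2 −1.02, SE 0.12, adjusted p = 0.0125 from limma), and its arrays read from −1.17 to −0.89. Against control it was at −0.51 with metformin and 0.51 with AICAR, and neither passed. VPS26A, a retromer subunit with an arrestin fold, had an adjusted p of 0.0471 with metformin at a log2 ratio of 0.66, under the threshold of 0.7. VPS26C was between −0.36 and 0.28 in the 3 comparisons. The family median was −0.022 with metformin and 0.124 with AICAR, against −0.000149 and 0.0400 over all transcripts.

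The transcription factor network upstream of TXNIP and ARRDC4 was covered in part. Of 5 measured genes of the Mondo and Mlx network, 2 fell with AICAR and both were higher with metformin than with AICAR. The shares of all transcripts for these calls were 2.89% and 4.59%. With metformin against control 0 passed, and 0 had an unadjusted p below 0.05 in limma. MLX, the partner that the Mondo proteins need to bind DNA, read −1.34 and −1.32 in culture 1 and −0.97 and −0.85 in culture 2 with AICAR. Its log2 ratio to control was −1.09 (SE 0.10, limma adjusted p = 0.0131, n = 2 cultures). MNT, a repressor that also pairs with MLX, was at −1.66 with AICAR (SE 0.11, adjusted p = 0.00784 from limma) and at 1.87 between the treatments. MXD4, a repressor of the same network, was at −0.47 with AICAR (adjusted p = 0.0788) and 0.59 between the treatments, and passed in neither. MLXIPL, the gene for ChREBP, stayed between 0.033 and 0.16 in the 3 comparisons. In the same AICAR extracts, TXNIP (0.12) and ARRDC4 (0.29) did not pass. MLXIP, also a gene of this list, was not measured. Whether the MLX and MNT values bear on TXNIP or ARRDC4 was not tested.

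Further genes known to carry or answer to carbohydrate response elements gave calls in each comparison. Of 10 measured, 1 fell with metformin, 2 rose with AICAR, and 4 were lower with metformin than with AICAR, where all 10 had a ratio below 0. The shares of all transcripts for these calls were 1.23%, 0.456% and 2.01%. Between the treatments, 10277 of 24541 transcripts had a ratio above 0, so most lay below it. FASN, the fatty acid synthase, fell with metformin by 1.46 on the log2 scale (SE 0.099, limma adjusted p = 0.0122, n = 2 cultures), with −1.45 and adjusted p = 0.0815 from the direct arrays alone, a fit in which 0 transcripts passed. SCD, which desaturates fatty acids, was at 0.87 with AICAR and −1.37 between the treatments. Its 2 probes read 0.62 and 1.12 with AICAR, and neither passed alone. KLF10, a zinc finger repressor, was at 1.57 with AICAR (adjusted p = 0.0263) and −1.48 between the treatments. The first call is lost with scaled arrays (1.58, adjusted p = 0.0651), and both are lost without the 3 arrays apart (1.75 and −1.44, adjusted p = 0.0713 and 0.0656). ACLY, which makes cytosolic acetyl-CoA, passed only between the treatments, at −1.06. The list median was −0.236 with metformin, 0.198 with AICAR and −0.395 between them, against −0.000149, 0.0400 and −0.0338 over all transcripts.

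Glucose transporters, the cargo of TXNIP, were nearly all under the threshold. Of 12 measured genes of glucose transporters and hexokinases, 0 passed with metformin. At an unadjusted p below 0.05 in limma there were 2, against 17.5% of all transcripts and 21.4% of genes with a symbol. Of all transcripts 2.89% fell with AICAR, and of these 12 genes 1 did. That gene was SLC2A1, for the transporter GLUT1, with −1.25 and −2.43 in culture 1 and −1.49 and −1.57 in culture 2. Its log2 ratio to control was −1.70 with AICAR (SE 0.18, adjusted p = 0.0166 from limma), 0.018 with metformin (adjusted p = 0.979) and 1.72 between the treatments (adjusted p = 0.0105). The AICAR call is lost, at −1.43 and adjusted p = 0.0696, without the 3 arrays whose slide numbers stand apart. SLC2A6 and SLC2A4, further transporters, were at −0.48 and −0.24 with metformin and did not pass, and 1 of 2 SLC2A4 probes carried that value, at −0.56 against 0.071. HK2, a hexokinase, was at −0.33 with AICAR, where its 2 probes read −0.87 and 0.21, and the lower one passed when probes were tested singly (adjusted p = 0.0252 from limma).

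In the thioredoxin system, which TXNIP restrains, SRXN1 had the highest ratio with metformin. SRXN1, the sulfiredoxin that repairs oxidized peroxiredoxins, read 1.84 to 2.27 on the 4 metformin arrays. Its log2 ratio was 2.05 with metformin (SE 0.12, limma adjusted p = 0.00966, n = 2 cultures), −1.10 with AICAR (adjusted p = 0.0178) and 3.15 between the treatments (adjusted p = 0.00272). From the direct metformin arrays alone the ratio was 2.11 and the adjusted p 0.0779. MAP3K5, the kinase ASK1 that thioredoxin holds inactive, fell with AICAR (log2 −0.80, adjusted p = 0.0342) and was higher with metformin than with AICAR (log2 0.98). Of 13 measured genes, these were the only 2 to pass in any comparison, and the other 11, TXN2 and PRDX5 among them, did not. Among all transcripts, 1.5% were higher with metformin, 2.89% lower with AICAR and 4.59% higher with metformin than with AICAR. Between the treatments, 3 of the 13 had a limma adjusted p below 0.05, and 2 of them passed. TXN2, the mitochondrial thioredoxin, was at −0.39 with metformin and −0.56 between the treatments, and the peroxiredoxin PRDX5 was at 0.63 with metformin.

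The ubiquitin ligases of the α-arrestins gave calls with AICAR and between the treatments, and the cargo genes gave none. Of 11 measured genes of NEDD4 family ligases and their adaptors, 0 passed with metformin. At an unadjusted p below 0.05 in limma there were 4, against 17.5% of all transcripts and 21.4% of genes with a symbol. With AICAR 1 rose and 1 fell, and 1 was higher with metformin than with AICAR. The shares of all transcripts for these calls were 0.456%, 2.89% and 4.59%. NEDD4L, a ligase that controls sodium channels, was at −1.40 with AICAR (SE 0.13, adjusted p = 0.0126 from limma), −0.65 with metformin (adjusted p = 0.0728) and 0.75 between the treatments. The last call is lost from direct ratios alone, at 0.69, and with scaled arrays, at 0.73 and adjusted p = 0.0808. NDFIP1, an adaptor that activates these ligases, was at 0.74 with AICAR and 0.51 with metformin, and passed only with AICAR. NEDD4 and SMURF2 had positive ratios between the treatments, 0.50 and 0.58, under the threshold of 0.7, and did not pass. Of the 11 genes, 2 had a limma adjusted p below 0.05 between the treatments, and 1 of them passed. Of 7 measured cargo and partner genes, 0 passed in any comparison in limma, with 2, 3 and 2 at an unadjusted p below 0.05. The shares were 17.5%, 20.9% and 26.4% of all transcripts, and 21.4%, 24.5% and 31.1% of genes with a symbol. ITGB4, an integrin subunit that ARRDC3 is known to bind, had adjusted p = 0.0234 with metformin at 0.65 and adjusted p = 0.0376 with AICAR at 0.47, both under the threshold of 0.7. YAP1, a transcriptional coactivator, was at 0.54 with metformin (adjusted p = 0.0455), while ADRB3 and F2R, the genes of receptors, lay between −0.50 and 0.24.

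**Figure D4:**
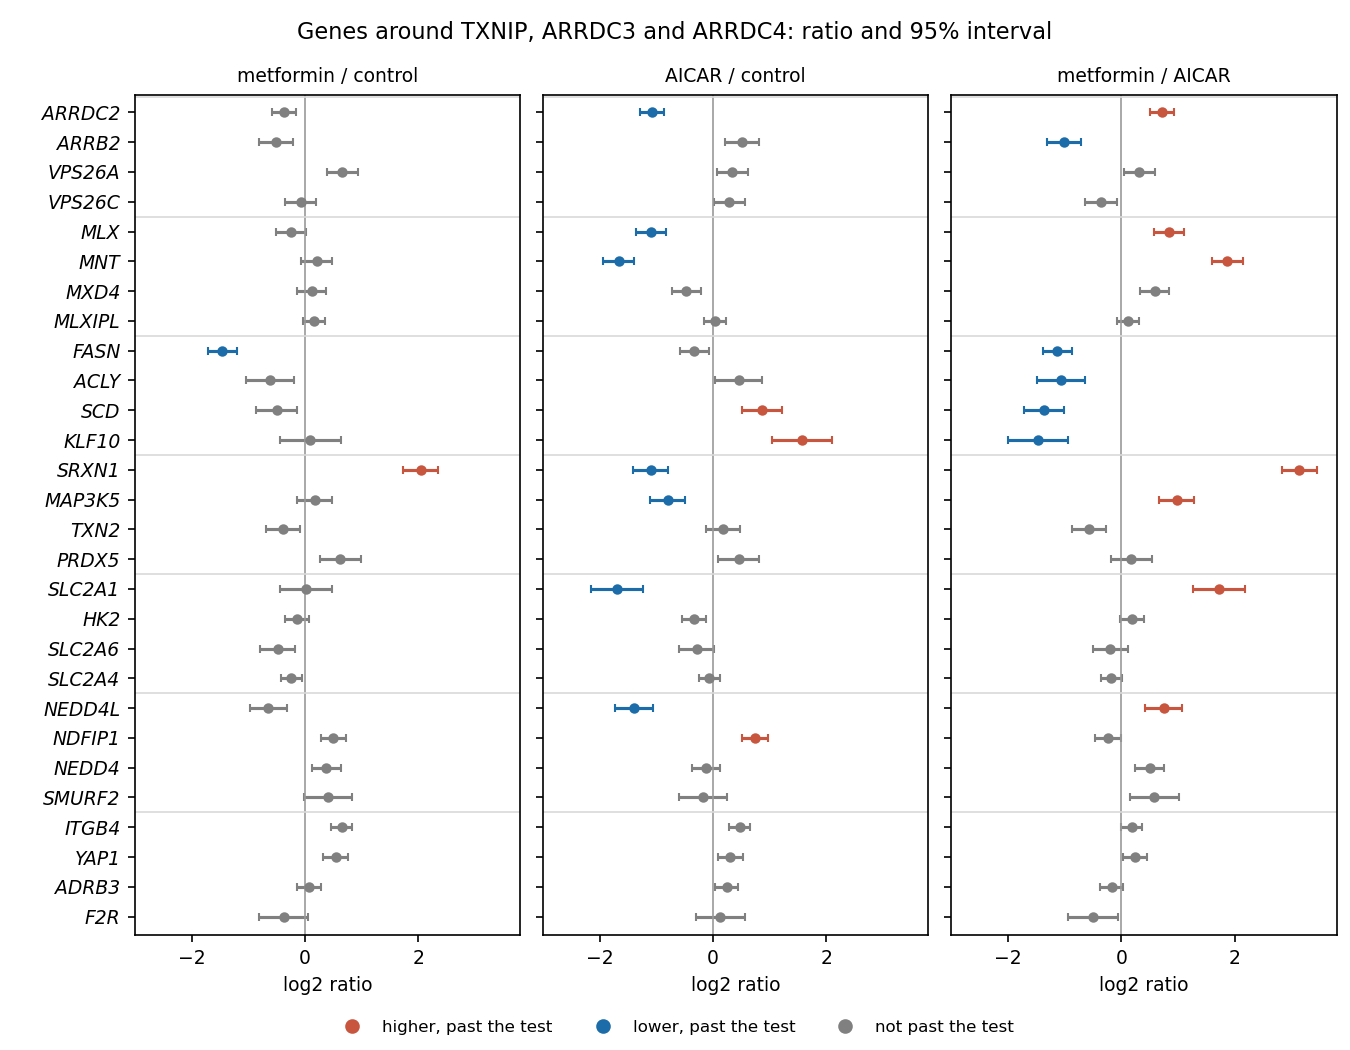
Fitted log2 ratio with 95% interval (horizontal axis) of 28 named genes in the 3 comparisons, grouped from top to bottom as arrestin fold, Mondo and Mlx network, carbohydrate response targets, thioredoxin system, glucose transporters and hexokinases, NEDD4 family ligases, and cargo and partners. Red marks genes past the test as higher, blue as lower and grey those that did not pass; SRXN1 and FASN are the only coloured points for metformin against control.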

How the data were processed

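The slides carried the RNG/MRC set of human oligonucleotides. The deposited log ratios, taken here as log2, had been normalized by the authors in limma, by print-tip loess on each slide and by quantiles across slides. The sources used here give neither limma's version nor any background correction. The direction is likely rather than stated: it follows limma's convention and the dye labels, and genes that the study names as induced by metformin, such as DDIT4, come out positive. Arrays had medians from −0.0417 to 0.051 and no missing values, and dye-swap partners correlated at −0.722 to −0.425 before alignment. Direct and indirect metformin ratios correlated across transcripts at 0.818 and 0.754 in the 2 cultures, a description over features of shared extracts. The precision of every value is limited by the 2 cultures, since dye-swap arrays repeat extracts with the same label.

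Of 17711 features listed with a symbol, 17595 kept a name after matching to a RefSeq table (GRCh38.p14), giving 14488 symbols. Features of a gene were averaged. Ratios were turned to a common direction, dye swaps averaged to 6 ratios, and 6 extract levels solved from them by least squares. Treatment and culture were fitted to the levels with limma 3.58.1 in R 4.3.3 (2 residual and 2.88 prior degrees of freedom), with the Benjamini-Hochberg adjustment over 24541 transcripts. SE is the moderated standard error. Culture is the replicate number of the labels, and ratios exist only within a culture, so it is part of the fit. The 3 comparisons share extracts and are not independent. The genes and the 7 lists were chosen with earlier results of these data known. Named genes are list members past the test in any comparison, filled up to 4 a list by smallest p. The fit was also run on simulated arrays with known changes but no dye offset. No result given here rests on that run. There were 13 alternatives, of which 11 allow a test.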

Additional observations from a re-analysis of the deposited data

How the results depend on the processing

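In none of the 11 alternatives with a test did a ratio of TXNIP, ARRDC3 or ARRDC4 pass. The ARRDC3 ratio with metformin could move only with direct ratios, centred or scaled arrays, or without the 3 arrays apart. It stayed positive there, from 0.33 to 0.47 against control and from 0.47 to 0.53 against AICAR. The other alternatives with a test change the error term, the threshold or the transcripts tested, or add a balanced dye term, and leave the ratio as it was. In either culture alone the ARRDC3 ratio ran from 0.21 to 0.64 and from 0.36 to 0.63. Its adjusted p fell under 0.05 where arrays or ratios of the same extracts counted as separate data points. Without the replicate block, in the fit to 6 averaged ratios, it was 0.0320 against control and 0.0110 against AICAR, but both ratios stayed under 0.7. With a dye term, ARRDC4 with AICAR reached 0.0294 in the same way. Of the values near 0, the TXNIP ratio of metformin to control turned to −0.081 once the 3 arrays with slide numbers apart were dropped, and that of ARRDC4 to −0.011 from direct ratios only. Dropping the 3 arrays also leaves culture 1 with a single array against control, with AICAR in Cy3. Slide numbers and dye balance therefore change together in that fit. Leaving out a culture leaves no test.

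Counts of transcripts moved more. Without the 3 arrays apart there were 210 higher (368) and 121 lower (303) with metformin, 60 higher (112) and 382 lower (709) with AICAR, and 314 lower (494) between the treatments, the counts of the reported fit in brackets. From direct ratios only, 0 passed with metformin. Lower calls with metformin were 464 with 12 separate arrays, 468 with a dye term and 455 without the replicate block, and higher calls with AICAR 275, 278 and 241. Scaled arrays gave 68 higher with AICAR, and adjusted p alone 190, and 1043 lower between the treatments. The cause was not tested. Of the 24 ratios of listed genes past the test, none changed sign, but 7 were lost without the arrays apart, 6 with scaled arrays, 4 from direct ratios and 1 with probes singly. Without the arrays apart, AICAR calls were lost at ratios close to or larger than the reported ones: SCD 0.95 (adjusted p 0.0838), KLF10 1.75 (0.0713), NDFIP1 0.77 (0.0504) and MAP3K5 −0.79 (0.0686). SRXN1 lost its AICAR call with scaled arrays at −1.03 (0.157). With adjusted p alone, 4 listed genes were higher with metformin, against 1.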

Other observations

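In the thioredoxin system, 4 of 13 genes (TXNRD1, PRDX1, PRDX3 and PRDX6) had both metformin to control arrays of culture 1 above 0 and both of culture 2 below it. Both of these culture 1 arrays carried slide numbers apart, and neither culture 2 array did. Culture and slide numbers therefore cannot be told apart in the metformin to control arrays. Of all transcripts, 8.73% had their cultures on opposite sides of 0 in this comparison. The pattern was picked after the values were seen. TXNRD1, the cytosolic thioredoxin reductase, had a metformin to control ratio of log2 3.36 and 2.46 on the arrays of culture 1 and −0.44 and −0.49 on those of culture 2. With AICAR it read 2.42 and 1.08 in culture 1 and 0.10 and 0.030 in culture 2. PRDX3, the mitochondrial peroxiredoxin, read 0.65 and 1.17 with metformin in culture 1 and −1.42 and −1.21 in culture 2. PRDX1, a cytosolic peroxiredoxin, read 0.58 and 0.47 in culture 1 and −0.69 and −0.72 in culture 2, and PRDX6 read 0.28 and 0.13 against −0.49 and −0.29. Between metformin and AICAR the 4 PRDX3 arrays were all below 0, from −2.02 to −0.74, and the fit gave −1.42 (SE 0.51, adjusted p = 0.166 from limma). TXNIP read nearly the same in both cultures in the same extracts, with fitted metformin to control values of 0.070 and 0.00029.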
